A study of Mus musculus with 4 samples.

Results

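The genes of the proteasome, the protease that degrades ubiquitin-tagged proteins, were described in mouse T cells, together with the immune subunits that replace some of its constitutive ones. Members were the genes with at least 1 protein-coding transcript whose symbol starts with Psma, Psmb, Psmc, Psmd, Psme, Psmf or Psmg plus a digit, which gave 50 of 55536 mouse genes in the tables and 50 of 21901 genes with a protein-coding transcript. The pseudogenes Psmb5-ps, Psmb6-ps, Psmb6-ps2 and Psmb7-ps2 were left out. The symbol rule also takes in Psmc3ip, a meiotic recombination factor that is named for binding Psmc3 and is no proteasome subunit. Total RNA was sequenced from splenic T cells, described in the labels by CD3, of male B6CASTF1/J mice aged 66 days, F1 animals with C57BL/6 as the maternal and CAST Eij as the paternal strain. There was 1 group of 4 libraries, each from 300 ng of RNA, with no treatment and no other condition, so genes were compared inside each library and libraries with each other. As the labels number the samples as biological replicates under 1 shared donor identifier, SDs measure the spread between these samples, which may be partly technical. The p-values rest on the same samples.

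The catalytic core of the proteasome is a barrel of alpha and beta rings. Psmb5, Psmb6 and Psmb7 encode its constitutive proteases, each cutting with an N-terminal threonine that is exposed when a propeptide is removed, and Psmb8, Psmb9 and Psmb10 encode the subunits that take their places in the immunoproteasome. Interferon gamma induces the immune subunits in many tissues, and lymphoid cells carry them without stimulation. The regulatory particle, an ATPase base with a lid, binds, unfolds and feeds in ubiquitin-tagged proteins, while the Psme genes encode other caps, of which Psme1 and Psme2 are also induced by interferon gamma. Peptides cut by the proteasome are carried by Tap1 and Tap2 into the endoplasmic reticulum and loaded on MHC class I.

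The positions compared are shown by the start of the coding sequence of each mature catalytic subunit, since the comparison of levels turns on which gene fills the position. Each line gives 15 codons, 5′ to 3′, on the coding strand of the annotated GENCODE M21 transcript, with the codon of the catalytic threonine in capitals. This codon is number 73 in Psmb8 and 60 in Psmb5, 21 in Psmb9 and 34 in Psmb6, and 40 in Psmb10 and 44 in Psmb7, counted from the start codon.
Psmb8-201: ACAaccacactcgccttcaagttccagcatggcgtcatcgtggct
Psmb5-201: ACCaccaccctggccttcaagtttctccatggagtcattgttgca
Psmb9-204: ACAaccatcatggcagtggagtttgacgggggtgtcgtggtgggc
Psmb6-201: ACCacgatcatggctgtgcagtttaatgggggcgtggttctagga
Psmb10-201: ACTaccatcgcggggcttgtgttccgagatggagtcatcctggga
Psmb7-201: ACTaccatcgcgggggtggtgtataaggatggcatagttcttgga
Over the 45 bases shown, Psmb8 and Psmb5 shared 35, Psmb9 and Psmb6 shared 33, and Psmb10 and Psmb7 shared 32. From the threonine codon to the stop codon, aligned bases were identical at 70.4% between Psmb8 and Psmb5, 66.2% between Psmb9 and Psmb6 and 64.8% between Psmb10 and Psmb7. Identity between unlike positions was lower within the constitutive set, at 62.1% for Psmb5 and Psmb6 and 62.2% for Psmb5 and Psmb7. Within the immune set it reached 68.5% of 555 aligned bases for Psmb8 and Psmb10 and 65.6% of 549 for Psmb8 and Psmb9. Gaps were not counted, and the like positions aligned over 608 (Psmb8 and Psmb5), 598 (Psmb9 and Psmb6) and 696 bases (Psmb10 and Psmb7). These percentages therefore do not rank the genes by likeness. Over the 45 bases shown, the unlike positions compared here shared 24 to 26. The genes lie far apart for the most part. In mm10, Psmb8 (chr17:34197721-34201454, plus strand) and Psmb9 (chr17:34181987-34187764, minus strand) flank Tap1, with Psmb8 starting 495 bases after it and Psmb9 overlapping its first 212 bases on the other strand. Psmb10 is on chromosome 8, Psmb5 on chromosome 14, Psmb6 on chromosome 11 and Psmb7 on chromosome 2. The library kit was stranded per the labels, but the use of strand in counting is not given in the sources used here, so reads in the overlap of Psmb9 and Tap1 are uncertain.

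Nearly all members were measured well above the detection limit. Levels are given as TPM, which is scaled to transcript length and to the library total and so allows genes to be compared. The deposited gene counts that underlie them summed to 15765009, 17280908, 16382457 and 14540725 in libraries 1 to 4. A mean of at least 1 TPM was reached by 48 of the 50 members and a mean of at least 10 TPM by 43. Their median was 28.2 TPM, against 12.9 TPM for the 10139 protein-coding genes with a mean of at least 1 TPM, and 40 members stood at or above that second value. Together the members held 0.174% ± 0.00385 of all TPM and 0.492% ± 0.00509 of the TPM of protein-coding genes (SD, n = 4 each). As a check of the label, all 10 T cell markers exceeded 1 TPM and summed to between 2903 and 3000 TPM in each library. Library 4 stood apart in markers of other cells. Its 10 B cell markers summed to 152 TPM, against 14.5 to 19.7 TPM in the other libraries, and its 6 erythroid markers to 633 TPM, against 15.3 to 62.5 TPM. Neutrophil markers were highest in library 2, at 34.8 TPM against at most 12.6 TPM, and 10 interferon response genes summed to between 74.9 and 97.5 TPM. In bulk RNA, fewer cells of a type and less RNA per cell cannot be told apart.

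**Figure D1:**
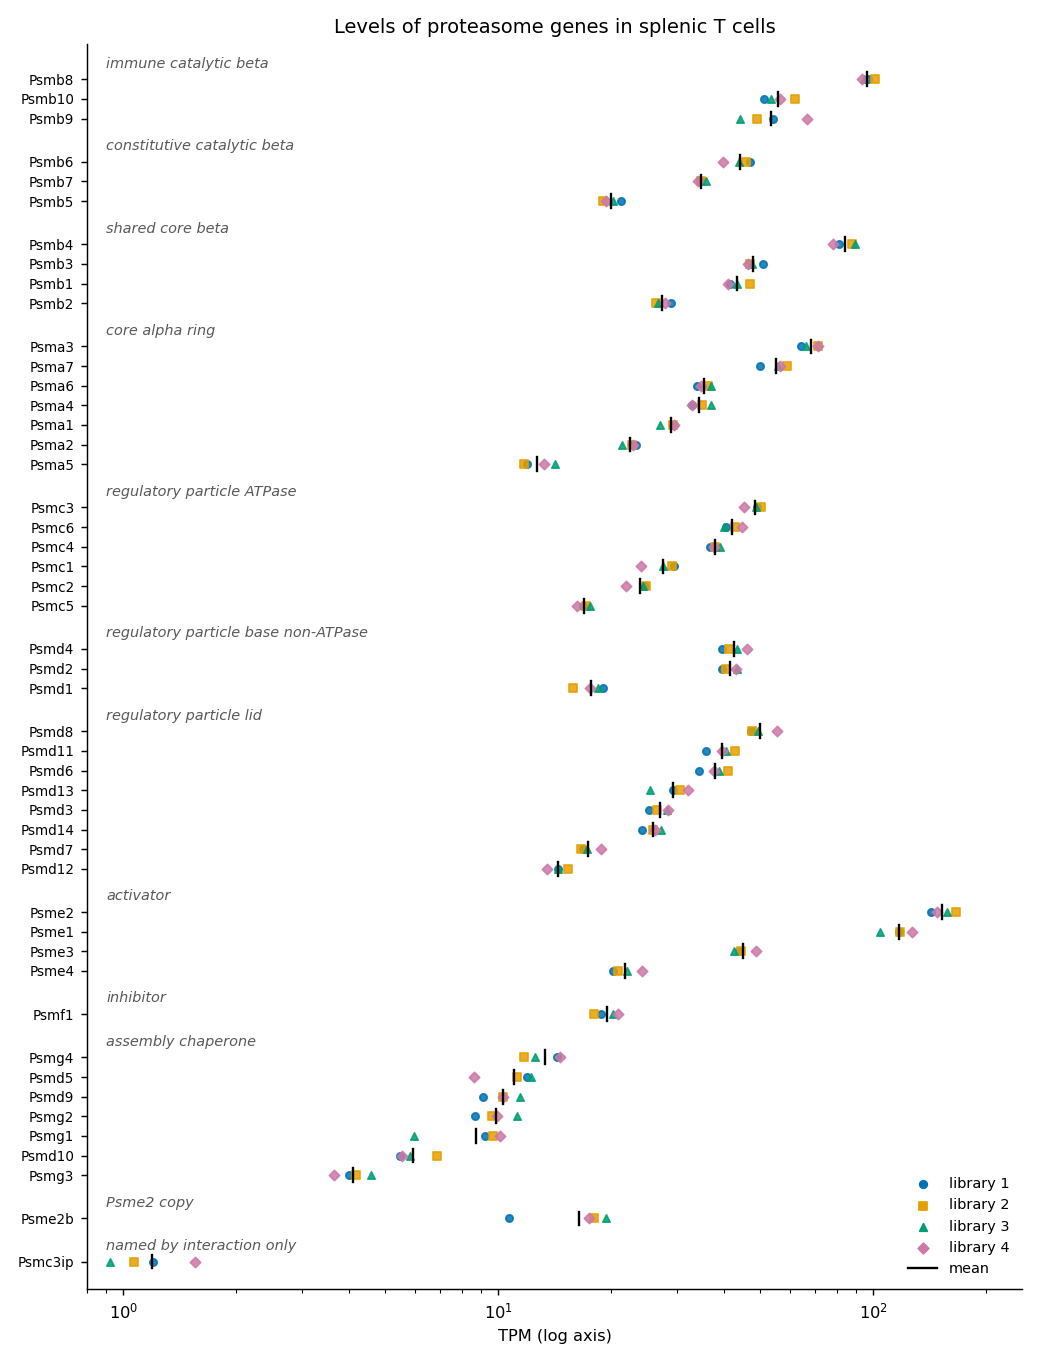
Level of each of the 48 members with a mean of at least 1 TPM in the first quantification, on a logarithmic TPM axis, grouped by role, with 1 point per library and a black bar at the mean of 4 libraries. Psme2, Psme1 and Psmb8 lie highest, at means of 153, 117 and 96.4 TPM, and the assembly chaperones have a median of 9.87 TPM.

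Over all their annotated transcripts, the immune catalytic subunits were present at levels equal to or above those of their constitutive counterparts. Psmb8, which takes the chymotrypsin-like beta 5 position, had 96.8, 101, 94.7 and 93.2 TPM in libraries 1 to 4. Psmb5, its constitutive counterpart, had 21.2, 19.0, 20.2 and 19.4 TPM. The 2 ranges were far apart, and every library gave the same order. The log2 ratio of Psmb8 to Psmb5, taken on TPM + 1 here and for the other pairs, was 2.22 ± 0.0931 (SD, n = 4), and Psmb8 made up 82.8% ± 0.935 of the TPM of the pair.

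At the trypsin-like beta 2 position, Psmb10 had 51.0, 61.8, 53.5 and 56.5 TPM. Psmb7 had 34.6, 34.8, 35.8 and 34.1 TPM, with a coefficient of variation of 2.11% on TPM, the lowest of the members above 10 TPM, and of 5.01% on counts scaled to the library total, where other members were lower. The ranges did not overlap. The log2 ratio of Psmb10 to Psmb7 was 0.66 ± 0.125 (SD, n = 4), and Psmb10 made up 61.5% ± 2.09 of the pair.

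At the caspase-like beta 1 position the genes were close. Psmb9, whose product replaces that activity with another cleavage preference, had 53.9, 49.1, 44.0 and 66.4 TPM. Psmb6 had 46.8, 45.7, 43.9 and 39.8 TPM. Psmb9 was clearly above Psmb6 in library 4 only, and in library 3 the genes were at the same level. The log2 ratio of Psmb9 to Psmb6 was 0.20, 0.10, 0.00 and 0.72 in libraries 1 to 4, with a mean of 0.26 ± 0.321 (SD, n = 4). The mean of 3 libraries without library 4 was 0.10. Library 4 was also the library with the highest B cell and erythroid marker sums, whose part in this result was not tested.

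The exact two-sided sign-flip permutation test gave p = 0.125 for each of the 3 ratios, also after Benjamini-Hochberg adjustment over the 5 gene ratios tested. With 4 libraries the test can give no smaller p and cannot pass 0.05, so each ratio is read by its size against its SD. Added together, the immune and constitutive genes of a position gave 116 ± 3.31 TPM for beta 5, 97.4 ± 7.88 TPM for beta 1 and 90.5 ± 4.55 TPM for beta 2 (SD, n = 4 each). The 11 alpha and beta subunits that have no immune counterpart had a median of 35.4 TPM, with Psmb4 highest at 84.1 TPM and Psma5 lowest at 12.7 TPM, so each summed position lay above all of them by its mean.

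**Figure D2:**
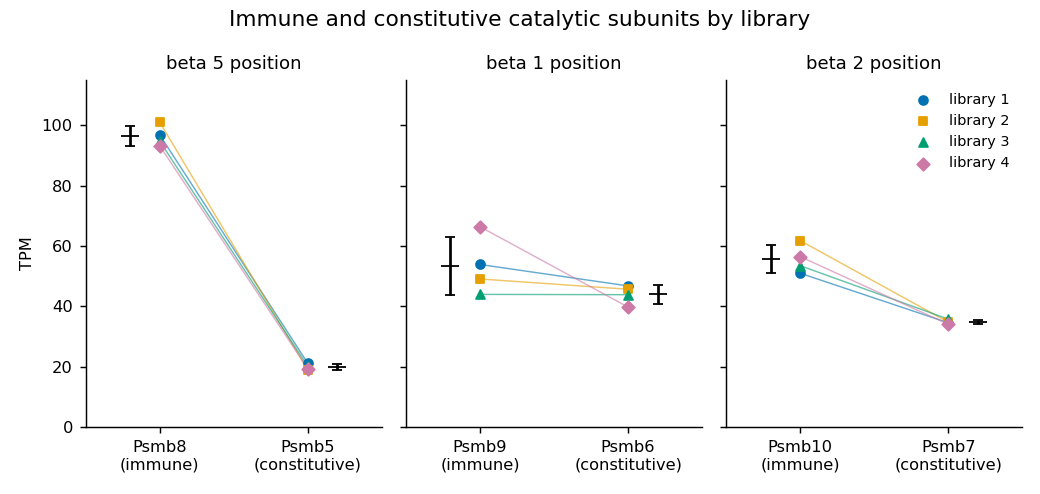
TPM of the immune subunit (left) and its constitutive counterpart (right) at the beta 5, beta 1 and beta 2 positions, with a line per library and the mean ± SD of 4 libraries beside the points. Psmb8 lies between 93.2 and 101 TPM with Psmb5 between 19.0 and 21.2 TPM, while Psmb9 and Psmb6 come together at 44.0 and 43.9 TPM in library 3.

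The spread of Psmb9 grew when counts were scaled to length. On CPM, the counts scaled to the library total with no length scaling, Psmb9 had 46.9, 46.9, 41.8 and 52.6 CPM in libraries 1 to 4, a coefficient of variation of 9.43% against 18.0% on TPM. The effective length that the quantification gave the gene, averaged over its transcripts by their share, was 837, 934, 933 and 788 bases, so the shortest value was in library 4. In the first quantification, transcript Psmb9-202, a model with an incomplete coding start, took 25.8 TPM in library 4, against 12.3 to 20.9 TPM in the other libraries. In the second quantification, a transcript table made from the reads of each library in another layout, it had 2.57 TPM in library 1 and was listed at 0 in libraries 2 to 4, while the gene as a whole was again highest in library 4, at 70.2 TPM against 45.6 to 60.1 TPM. With the length held at its mean over libraries, an alternative chosen after seeing the data, the log2 ratio of Psmb9 to Psmb6 was 0.25 ± 0.215 (SD, n = 4), and library 4 gave 0.57 where the other libraries gave 0.10 to 0.19. Psmd5, an assembly chaperone of the regulatory particle base, showed the same kind of difference between scales. It had 8.62 TPM in library 4, against 11.2 to 12.2 TPM in the other libraries, while its CPM ran only between 22.1 and 23.9.

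**Figure D3:**
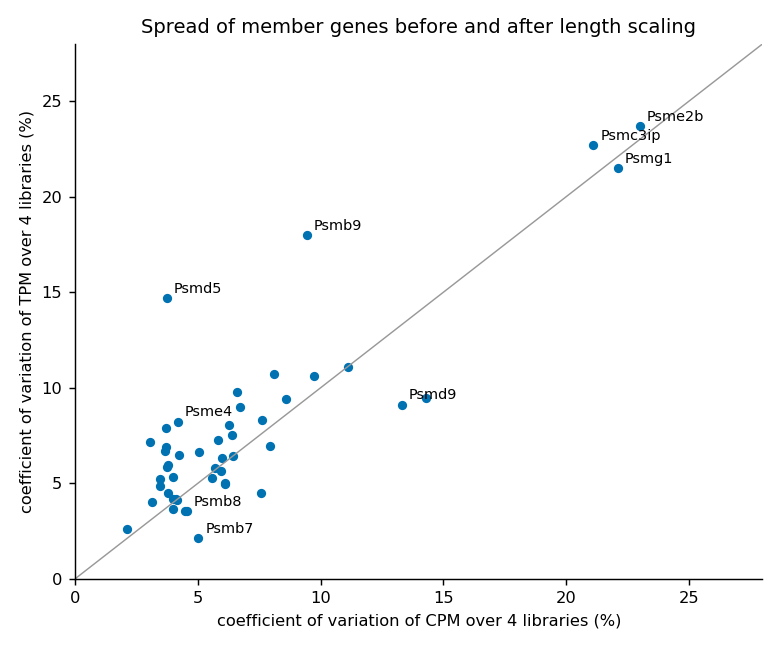
Coefficient of variation over 4 libraries of the 48 members with a mean of at least 1 TPM, in CPM on the horizontal axis and in TPM on the vertical axis, with the line of equality. Psmb9 (9.43% and 18.0%) and Psmd5 (3.73% and 14.7%) lie far above the line, while Psme2b, Psmg1 and Psmc3ip are spread on both scales.

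Part of the immune subunit RNA was assigned to transcripts that are not annotated as coding, and this changed the comparison. Total RNA holds unspliced and intron-retaining RNA as well as mature mRNA. The shares moved with the quantification, and those of the first are given before those of the second. In the first, in Psmb8, 43.6% ± 2.22 of the TPM was in protein-coding transcripts and 56.4% in retained-intron transcripts. All of the Psmb5 level was coding, which the annotation fixes, since its 2 annotated transcripts are both protein-coding. Psmb8 has 7 annotated transcripts with 3 coding, Psmb9 7 with 3, Psmb6 4 with 1, Psmb10 7 with 1 and Psmb7 2 with 1. A share depends on which transcripts are annotated, so a difference between genes need not be one of RNA processing. The second table put 65.9% ± 2.92 of Psmb8 in coding and 34.1% in retained-intron transcripts. In Psmb9 the first table had 60.9% ± 3.73 coding, 23.8% retained intron and 15.2% a nonsense-mediated decay transcript, against 69.8% ± 2.58 coding in Psmb6, and the second table had 44.8% ± 6.00 coding, against 61.8% ± 3.97 in Psmb6. In Psmb10 the first table had 30.1% ± 1.05 coding, 33.9% retained intron and 36.0% a processed transcript without a coding frame, against 92.3% ± 1.81 coding in Psmb7, and the second table had 40.4% ± 3.15 coding, against 93.4% ± 1.40 in Psmb7 (SD, n = 4 each). In the first quantification, over the 43 members above 10 TPM, the median coding share was 76.9%, against 68.2% over the 5907 protein-coding genes above 10 TPM. Low coding shares were also given there to Psmc6 at 17.8% ± 2.62, Psmb4 at 29.1% ± 2.01, Psmd6 at 37.5% ± 4.42 and Psmf1 at 41.8% ± 5.59, and in the second table to Psmc6 at 11.7% ± 0.912, Psmb4 at 42.9% ± 4.61, Psmd6 at 37.9% ± 4.11 and Psmf1 at 48.6% ± 4.18 (SD, n = 4 each).

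With the protein-coding transcripts of the first quantification alone, the log2 ratio of Psmb8 to Psmb5 was 1.04 ± 0.0821 and that of Psmb9 to Psmb6 was 0.06 ± 0.273. That of Psmb10 to Psmb7 was -0.90 ± 0.0902, the opposite direction to the ratio over all transcripts, and each of the 4 libraries lay at -0.80 or lower (SD, n = 4 each). The exact sign-flip p was 0.125 for Psmb8 to Psmb5 and for Psmb10 to Psmb7, and 0.625 for Psmb9 to Psmb6. The single coding transcript of Psmb10, Psmb10-201, had 16.8 ± 1.17 TPM, against 32.1 ± 0.188 TPM for that of Psmb7, Psmb7-201, and 28.6 ± 4.20 TPM in the second table, against 45.5 ± 1.98 TPM (SD, n = 4 each). The order of Psmb10 and Psmb7 therefore depended on whether the other transcripts were counted, and that of Psmb8 and Psmb5 did not. In the first table, however, most of the coding level of Psmb8 was Psmb8-203, whose coding end is incomplete. The complete Psmb8-201 alone had 1.57 ± 0.858 TPM there, below Psmb5-201 at 20.0 ± 0.986 TPM. In the second table Psmb8-201 lay above Psmb5-201, at 31.9 ± 1.78 against 20.4 ± 0.733 TPM (SD, n = 4 each). The order of Psmb9 and Psmb6 also changed. With coding transcripts of the first table, Psmb9 was above Psmb6 in 2 of 4 libraries, against 4 of 4 over all transcripts. In the second table, the coding transcripts of Psmb9 together lay below Psmb6-201, the single coding transcript of Psmb6, in each library. That difference was not tested.

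Over all transcripts, the second deposited quantification gave log2 ratios of 2.50 ± 0.118 for Psmb8 to Psmb5, 0.13 ± 0.241 for Psmb9 to Psmb6 and 0.52 ± 0.0798 for Psmb10 to Psmb7 (SD, n = 4 each). Psmb9 was above Psmb6 in 3 of 4 libraries there. The tables also differed in the Psmb8 transcripts they drew on. The complete coding transcript Psmb8-201 had 1.57 ± 0.858 TPM in the first table and 31.9 ± 1.78 TPM in the second, while Psmb8-203, a model with an incomplete coding end, had 40.5 ± 3.04 and 47.9 ± 3.83 TPM. Levels of single Psmb8 transcripts are thus uncertain.

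**Figure D4:**
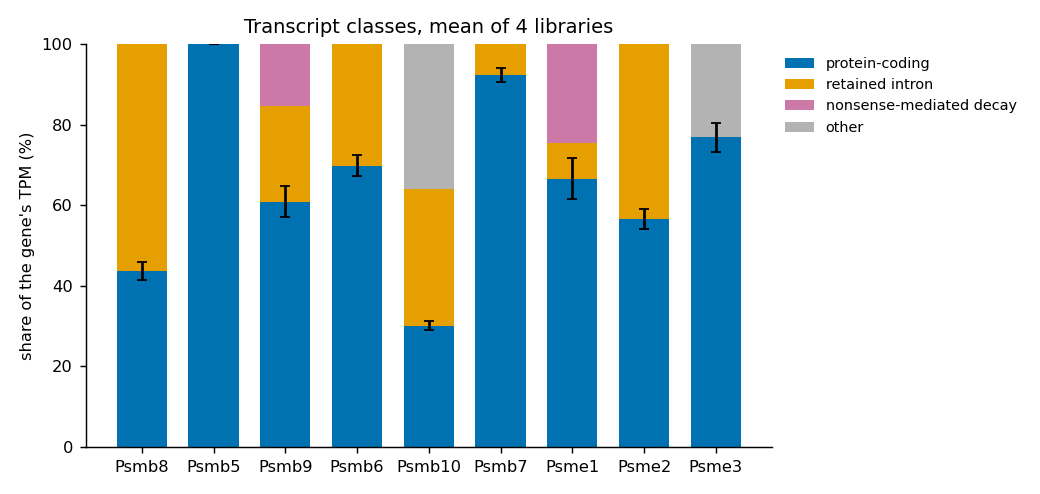
Share of the TPM of each gene by annotated transcript class in the first quantification, as the mean of 4 libraries, with the SD of the protein-coding share as an error bar. Psmb5, with only protein-coding transcripts annotated, is all protein-coding. Psmb7 is at 92.3%, while the coding share is 43.6% in Psmb8 and 30.1% in Psmb10.

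The thymic and germ cell subunits were at or near 0 in the first quantification. Psmb11, the catalytic subunit of thymic epithelial cells, had 0.0100 TPM in library 1 and was listed at 0 in libraries 2 to 4. The second quantification gave it 0.584, 0.790, 0.659 and 0.672 TPM, so its level is uncertain. Its gene lies 3410 bases from Psmb5 on chromosome 14. Psma8, the germ cell alpha subunit, had 0.0700 TPM in library 4 and was listed at 0 in libraries 1 to 3. A count of 3, the limit that a count of 0 allows, corresponds to 0.174 to 0.206 CPM in these libraries, for counting error only.

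The shared core subunits differed among themselves more than between libraries. The 7 alpha ring genes, whose products form the gate of the barrel, had a median of 34.4 TPM and ran from Psma5 at 12.7 ± 1.20 TPM to Psma3 at 68.2 ± 3.60 TPM, a 5.35-fold range. Psma7 had 55.1 ± 3.81, Psma6 35.4 ± 1.43, Psma4 34.4 ± 2.00 and Psma1 28.8 ± 1.20 TPM, and Psma2 lay between 21.4 and 23.3 TPM. The 4 structural beta genes had a median of 45.5 TPM, with Psmb4 at 84.1 ± 5.40, Psmb3 at 47.8 ± 2.01, Psmb1 at 43.3 ± 2.73 and Psmb2 at 27.4 ± 1.13 TPM (SD, n = 4 each). Since 1 copy of each of these products enters each ring, levels of total RNA were unequal for subunits of equal number. Of Psmb4, 70.9% was in retained-intron transcripts, and its coding transcript Psmb4-201 had 24.5 ± 1.71 TPM, inside the range of the other core genes.

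The regulatory particle lay at similar levels. Its 6 ATPase genes, which unfold substrates, had a median of 32.7 TPM, from Psmc5 at 16.9 ± 0.602 TPM to Psmc3 at 48.3 ± 2.17 TPM. Psmc6 had 42.0 ± 2.10, Psmc4 37.8 ± 0.992, Psmc1 27.5 ± 2.48 and Psmc2 23.9 ± 1.35 TPM. In protein-coding transcripts alone, Psmc6 was the lowest of the 6, at 7.48 ± 1.13 TPM against 13.0 ± 1.45 TPM for Psmc5. Among the base subunits without ATPase activity, the ubiquitin receptor Psmd4 had 42.6 ± 2.76 TPM, the scaffold Psmd2 41.6 ± 1.87 TPM and Psmd1, the other large scaffold, 17.7 ± 1.40 TPM. The 8 lid genes had a median of 28.2 TPM and ran from Psmd12 at 14.4 ± 0.756 TPM to Psmd8 at 49.8 ± 3.75 TPM. Psmd14, the deubiquitinase that cuts ubiquitin chains from substrates, stood near the middle at 25.9 ± 1.26 TPM, and Psmd11, a scaffold subunit, at 39.6 ± 2.84 TPM. The other lid genes had 37.9 ± 2.75 (Psmd6), 29.3 ± 2.87 (Psmd13), 27.0 ± 1.45 (Psmd3) and 17.3 ± 1.01 TPM (Psmd7; SD, n = 4 each).

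The assembly chaperones had the lowest median of the role groups with more than 1 gene. Their 7 genes had a median of 9.87 TPM and ran from Psmg3 at 4.09 ± 0.387 TPM to Psmg4 at 13.3 ± 1.41 TPM, so the highest of them lay near the lowest alpha ring gene. Psmg1, which with Psmg2 starts the alpha ring, had 9.20, 9.68, 5.96 and 10.1 TPM in libraries 1 to 4, while Psmg2 had 8.67, 9.64, 11.2 and 9.94 TPM. Library 3 was the lowest for Psmg1 and the highest for Psmg2. The base chaperones were Psmd5 at 11.0 ± 1.61, Psmd9 at 10.3 ± 0.936 and Psmd10 at 5.92 ± 0.655 TPM (SD, n = 4 each). Psmc3ip, the meiotic factor, had 1.19 ± 0.269 TPM.

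The caps induced by interferon gamma had the highest levels of all members in the first quantification. Psme1, the alpha subunit of the activator ring, had 117, 118, 104 and 127 TPM in libraries 1 to 4. Psme2, its beta subunit, had 143, 166, 157 and 148 TPM. Psme1 was below Psme2 in every library, with a log2 ratio of -0.39 ± 0.173 (SD, n = 4). In the second quantification Psme1 was above Psme2 in every library, with a log2 ratio of 0.52 ± 0.0732 (SD, n = 4), and with protein-coding transcripts alone the ratio was -0.16 ± 0.121 (SD, n = 4). The exact sign-flip p was 0.125, 0.125 and 0.250 for these 3 measures. Over all transcripts, which of Psme1 and Psme2 was higher depended on the quantification. Retained-intron transcript Psme2-203 took 55.8 ± 8.24 TPM in the first table and 0 in the second. Psme3, which forms a nuclear ring of its own, had 43.9, 44.5, 42.6 and 48.8 TPM. The log2 ratio of Psme1 to Psme3 was 1.35 ± 0.0557 (SD, n = 4), with the same direction in the second quantification at 1.08 ± 0.0387 and in coding transcripts at 1.14 ± 0.130. Psme4, the single-chain nuclear cap, had 21.8 ± 1.79 TPM, and Psmf1, named as a proteasome inhibitor, 19.5 ± 1.29 TPM (SD, n = 4 each). Psme1 and Psme2 lie 5911 bases apart on chromosome 14, on opposite strands.

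**Figure D5:**
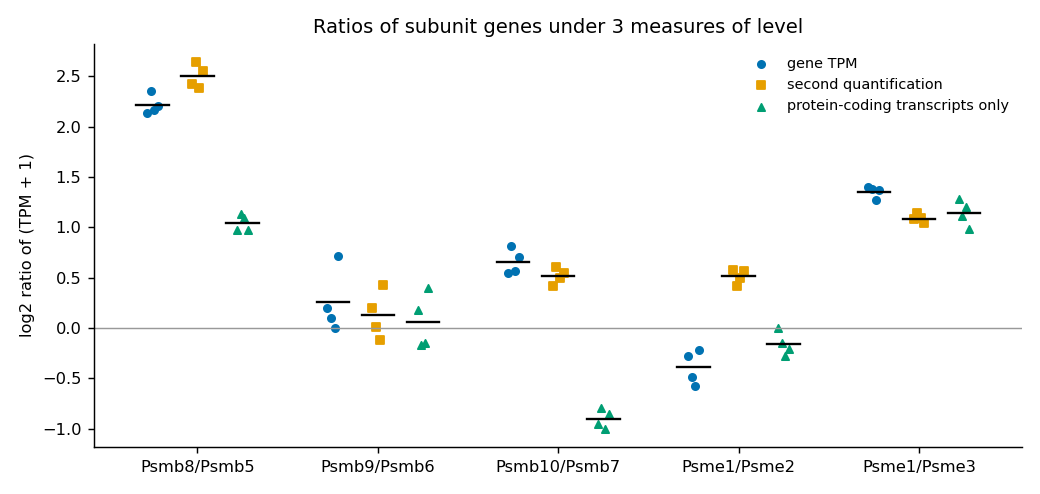
The log2 ratio of TPM + 1 for 5 gene pairs in each of 4 libraries (points) with the mean (black bar), from gene TPM, from the second quantification and from protein-coding transcripts of the first. Psmb8/Psmb5 and Psme1/Psme3 stay above 0 in all measures, Psmb10/Psmb7 is at -0.90 with coding transcripts only, and Psme1/Psme2 is at 0.52 in the second quantification.

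The level of Psme2 is tied to that of a near-identical copy, Psme2b, a gene on chromosome 11 with a single annotated transcript. The coding sequences of Psme2-201 and Psme2b-201 were identical at 683 of 696 aligned bases, with a longest identical stretch of 264 bases, whereas Psme1-208 and Psme2-201 were identical at 446 of 685. The lines below give 90 coding bases, chosen as those that differ most within the longest stretch aligned without a gap. They start at coding base 430 of Psme2-201 and 454 of Psme2b-201 in GENCODE M21. Both run 5′ to 3′ on the coding strand, with the 3 differing bases in capitals.
Psme2-201: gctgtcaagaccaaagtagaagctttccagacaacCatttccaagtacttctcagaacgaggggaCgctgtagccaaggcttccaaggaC
Psme2b-201: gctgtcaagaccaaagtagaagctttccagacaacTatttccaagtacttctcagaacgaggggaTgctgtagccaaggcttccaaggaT
Within the aligned coding bases, a read that covers none of the 13 differing bases cannot be assigned to either gene by its sequence. Psme2b had 10.7, 18.0, 19.4 and 17.5 TPM in libraries 1 to 4, lowest in library 1. The deposited posterior SD of its count, the uncertainty of assigning reads, averaged 6.69% of the count, against 1.11% for Psme2. Its share of the summed Psme2 and Psme2b level was 9.58% ± 1.82 in the first quantification and 20.7% ± 2.59 in the second (SD, n = 4 each), so its own level is uncertain.

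In the order of gene TPM of the first quantification, Psme2, Psme1, Psmb8, Psmb4, Psma3 and Psmb10 came first, each above the next of these in all 4 libraries by more than the larger SD of the neighbours. From Psmb10 at 55.7 ± 4.64 TPM down to Psmb3 at 47.8 ± 2.01 TPM, the neighbours Psma7, Psmb9, Psmd8 and Psmc3 did not differ beyond their SD. Psmb9 and Psma7 differed by 1.82 TPM, against an SD of 9.59 TPM for Psmb9. Psmb5 ranked 33 of 50, beside Psme4 and Psmf1, and Psmb8 ranked 3. The top of the order turned in the second quantification, with Psme1 at 171 ± 15.0, Psmb8 at 122 ± 9.42 and Psme2 at 119 ± 10.8 TPM (SD, n = 4 each). With coding transcripts alone, Psmb4 and Psmb10 fell back to the 24.5 and 16.8 TPM given above.

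No member was called as variable between the 4 libraries. A goodness-of-fit test of edgeR, fitted over 13118 genes with an intercept only, called 183 genes, or 1.40%, as more variable than genes of like abundance at an adjusted p under 0.05. It called 0 of the 48 members tested, a share near that background, and 1 member had an unadjusted p under 0.05, against 4.60% of all genes tested. That member was Psme2b, with an edgeR adjusted p of 0.804 and an unadjusted p of 0.0284. Counts of calls among members were also 0 under every alternative scaling, filter and dispersion tried with edgeR. The median absolute log2 CPM deviation of a member from its mean over libraries was 0.0545, against 0.0798 over all genes tested. Those genes were not matched to the members in abundance, so this difference is not read further. In TPM, the median coefficient of variation of the 43 members above 10 TPM was 6.32%, against 7.61% for the 5907 protein-coding genes. Psmg1 had the deviation of -0.54 in library 3, against 0.13 to 0.25 in the other libraries, with an adjusted p of 1.000 in the edgeR test. In library 2, 34 of 48 members lay above their mean, in library 1 27, in library 3 19 and in library 4 18, while at most 51.1% of all genes did in any library. The library medians of the members were between -0.023 and 0.045 on the log2 scale.

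Of the genes that work beside the proteasome, the same edgeR test called 0 of 35, against the 1.40% of all genes, and 0 had an unadjusted p under 0.05, against 4.60%, so counts this small say little about the list. The list held 39 symbols, of which 35 matched the annotation. Of the rest, Shfm1, AI314180 and Ufd1l are other names of Sem1, Ecpas and Ufd1, which matched, and Paaf1 was not found. Among the ubiquitin genes, the polyubiquitin gene Ubb had 414 ± 17.3 TPM and the activating enzyme Uba1 70.8 ± 5.09 TPM. Genes for assembly or binding outside the symbol rule lay in the range of the members, including the core assembly factor Pomp at 24.3 ± 4.06, the ubiquitin receptor Adrm1 at 44.7 ± 2.64, the lid subunit Sem1 at 26.2 ± 0.937 and the deubiquitinase Usp14 at 20.4 ± 1.44 TPM. Among shuttle and unfolding genes, Rad23b had 37.7 ± 2.63 TPM and the segregase Vcp 37.3 ± 2.09 TPM. Among the transcription factors, Irf1 of the interferon response had 159.7 ± 11.6 and the MHC class I transactivator Nlrc5 144 ± 7.46 TPM, against the stress response factors Nfe2l1 at 18.3 ± 1.89 and Nfe2l2 at 18.2 ± 1.43 TPM. In peptide loading, Tap1 at 64.9 ± 3.35 and Tap2 at 56.0 ± 0.758 TPM stood near Psmb9 and Psmb10, Tapbp at 139.6 ± 2.19 TPM above them and B2m, the MHC class I light chain, at 853 ± 19.1 TPM (SD, n = 4 each).

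Motifs were searched on both strands in RefSeq promoters of GRCm38.p6, from 250 bases before to 50 bases after a gene start. Of the members, 42 matched a promoter by symbol. GAAANNGAA, a core of the interferon-stimulated response element, was found in 7 members (16.7%), against 9.76% of all 27025 genes in the table, counting a gene with several windows once. The members were Psmb4, Psmd4, Psmc2, Psmd9, Psmb3, Psmg4 and Psme1. Psmb8, Psmb9 and Psmb10 were not among these. A member without a window could hold no match. Psmb9 had a window, in which CCAAT was found. Whether Psmb8 and Psmb10 had a window is not shown here, so no absence of the motif is read for them. TGACNNNGC, a core of the antioxidant response element, was in 6 members (14.3%), among them Psmb5 and Psmb6, against 14.0% of all genes. CCAAT was in 15 members (35.7%), against 41.1%. A match is a description of the sequence and no measured site.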

How the data were processed

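Total RNA-seq of 4 libraries of 1 group was used. Per the labels, values refer to mm10 and GENCODE M21, and no source used here names the aligner or the quantifiers. The authors deposited per library an RSEM-layout gene and transcript table with expected counts, TPM and FPKM, and a kallisto-layout transcript table with estimated counts and TPM, all unpooled. The deposited TPM and FPKM values are scaled to effective length, and TPM also to a fixed total that abundant short RNAs fill in part, so TPM of the 2 tables is not compared in level except where both are named. Reads with CAST Eij variants could be lost against the C57BL/6 reference.

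The 97 spike-ins (0.299% to 0.347% of counts) and identifiers that name no gene (at most 8.75e-05%) stayed out of library sizes and tests. Ratios were log2((TPM + 1)/(TPM + 1)) within a library. Variation was tested with edgeR 4.0.16 (R 4.3.3) after rounding the expected counts, with TMM, filterByExpr, trended dispersion and Benjamini-Hochberg adjustment at 0.05, and checked on simulated data. DESeq2 1.42.0 gave alternative size factors. The second table was summed per gene. Sequences came from the GENCODE transcripts, aligned with biopython; planned comparisons of protein sequences were not run. Python 3.11.15 and pandas 2.3.3 were used.

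Named genes were every member, the listed pathway genes and marker sums. Levels of some listed pathway genes are not reported here; the counts of genes include them. Members and lists were chosen with earlier results of these data known. PCR reads carry no molecular identifiers, so floors cover counting error only.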

Additional observations from a re-analysis of the deposited data

Results flagged for a closer look

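For each member and ratio, 53 items in all, the gap between the most distant library and its neighbour was compared with the whole range, and 2 items exceeded the 95% critical value of Dixon for 4 libraries. Chance flags about 1 in 20 items. Psma1, an alpha ring subunit, had 27.0 TPM in library 3, against 29.2 to 29.5 TPM in the other libraries, a gap of 0.884 of the range. Psmc2, an ATPase of the base, had 21.9 TPM in library 4, against 24.3 to 24.8 TPM in the others, a gap of 0.837 of the range. Neither gene was called in the edgeR test of variation.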

How the results depend on the processing

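No paired analysis was possible because there is 1 group. Directions held in all ratios with a fixed effective length (added after seeing the data). FPKM, pseudocount 0.1, no pseudocount and leaving out each library could not change a direction. FPKM and TPM are proportional within a library, and a pseudocount leaves the sign there unchanged. Each ratio also had the same sign in all 4 libraries. Leaving out each library gave ranges of 2.17 to 2.24 for Psmb8 to Psmb5, 0.10 to 0.34 for Psmb9 to Psmb6, 0.61 to 0.70 for Psmb10 to Psmb7, -0.45 to -0.33 for Psme1 to Psme2 and 1.34 to 1.38 for Psme1 to Psme3. Psmb10 to Psmb7 reversed to -0.90 in protein-coding transcripts, and Psme1 to Psme2 to 0.52 in the second quantification and to 0.18 there with Psme2b added to Psme2 (added after seeing the data); the cause was not tested. The second quantification gave role medians of 44.2 (alpha ring), 60.2 (shared beta), 48.7 (constitutive catalytic), 70.4 (immune catalytic), 43.2 (ATPase), 39.0 (lid), 13.2 (chaperones) and 99.8 TPM (activators), and a median coding share of 70.6%. Coding transcripts alone gave 27.7, 32.6, 30.7, 32.4, 21.5, 16.4, 7.38 and 56.0 TPM in the same order, and 32.0 TPM for the base subunits without ATPase activity. Of 48 members above 1 TPM, 47 were higher in the second table, by a median ratio of 1.34. Genes called as variable numbered 279 with no filter, 353 with a common dispersion and 116 to 146 with 1 library left out, 116 without library 4 and 118 without library 1. Members called stayed at 0 in each. Precision is limited by 4 libraries.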
